A study of Mus musculus with 6 samples.

Results

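Kif14 and Ensa, a pair of genes that act in cell division, were examined in the hippocampus of mice without the transcription factor Nrf2. The array held 60915 measured sequences, and each of the 2 genes was followed through 1 of them, with 1 spot per array. These are ASMM10P022164 for Kif14 on chromosome 1 and ASMM10P055333 for Ensa on chromosome 3. Both were named from the study's lists of changed transcripts, so any sequence of either gene outside those lists could not be named here. The values below are those of these sequences and may not hold for every transcript of the genes. The pair was chosen by its measured signals, which were higher in Nrf2 (−/−) than in Nrf2 (+/+) mice in these same arrays. Their genotype difference is therefore given as a description, with no p-value. Adult male mice of the ICR strain, 3 to 4 months old, gave 1 hippocampus RNA sample each, from 3 wild-type Nrf2 (+/+) and 3 Nrf2 gene knockout (−/−) animals. The arrays, Arraystar mouse lncRNA microarrays labeled with the single dye Cy3, carry mRNA and lncRNA sequences together. The study asked which transcripts of this brain region differ between the genotypes. The knockout is carried by the whole animal, and the hippocampus was taken as bulk tissue. A change in the number of cells of a type and a change in RNA per cell therefore cannot be told apart.

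KIF14 is a kinesin, a motor protein that moves along microtubules. It gathers at the central spindle late in mitosis with its partners PRC1 and citron kinase, and is needed for cytokinesis, the step that separates the daughter cells. Its transcript is known for rising in dividing cells, which are few in the adult hippocampus and include the progenitors of the dentate gyrus. ENSA, endosulfine alpha, is a small phosphoprotein. The kinase Greatwall (MASTL) phosphorylates it at mitotic entry, and in that form it inhibits the phosphatase PP2A bound to its B55 subunit, which otherwise removes phosphates set by CDK1. ENSA is also present in cells that no longer divide, and was first described as a ligand of the sulfonylurea receptor of ATP-sensitive potassium channels. Nrf2, encoded by Nfe2l2, activates transcription from antioxidant response elements (AREs).

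The sequences before the start sites show what the promoters of the pair hold for Nrf2 and for the cell cycle. Both are RefSeq sequences of the mouse assembly GRCm38.p6 on the plus strand, from 250 bases before the annotated start to 30 bases after it, and both genes matched by symbol. The Kif14 stretch is chr1:136467598-136467877 and the Ensa stretch is chr3:95624730-95625009. Capitals mark every match, on either strand, to the ARE core TGACNNNGC, to the cell cycle homology element (CHR) TTTGAA and to the CCAAT box, whose reverse complement is ATTGG.
Kif14: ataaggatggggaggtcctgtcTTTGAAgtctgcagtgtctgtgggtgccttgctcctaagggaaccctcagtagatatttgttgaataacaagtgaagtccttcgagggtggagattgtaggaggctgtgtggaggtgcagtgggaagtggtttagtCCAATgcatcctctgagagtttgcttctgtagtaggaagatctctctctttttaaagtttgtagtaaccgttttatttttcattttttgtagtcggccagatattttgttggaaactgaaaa
Ensa: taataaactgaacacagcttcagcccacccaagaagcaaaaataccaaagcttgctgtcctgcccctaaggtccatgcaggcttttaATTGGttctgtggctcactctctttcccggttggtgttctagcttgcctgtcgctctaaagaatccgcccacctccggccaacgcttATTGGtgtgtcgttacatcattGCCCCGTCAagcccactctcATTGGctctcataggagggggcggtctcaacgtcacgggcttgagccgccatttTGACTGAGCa

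The Kif14 promoter held 1 CHR match, 228 to 223 bases before the start, and 1 CCAAT box, 92 to 88 bases before it. It held 0 matches to the ARE core. The CHR element is known from promoters of genes that are repressed outside the late cell cycle. The Ensa promoter held 2 matches to the ARE core, one on the minus strand as GCCCCGTCA (54 to 46 bases before the start) and one on the plus strand as TGACTGAGC (bases 21 to 29 after it). It held 3 CCAAT boxes, all on the minus strand, and 0 CHR matches. The matches to different motifs did not overlap. Among 32851 promoter windows of 300 bases, 12.4% held at least 1 match to the ARE core and 0.986% at least 2. A CHR match was found in 17.9% of the windows, a CCAAT box in 37.4%, and at least 3 CCAAT boxes in 3.37%. G and C made up 43.7% of the bases of the Kif14 window and 53.0% of those of the Ensa window. A match is a string of letters, and binding was not measured.

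The arrays of the genotypes differed in overall brightness, which touches every signal below. Each array held 62939 features. The median signal, in scanner units, was 109, 105 and 87.7 for Nrf2 (+/+) replicates 1, 2 and 3, and 184, 172 and 138 for Nrf2 (−/−) replicates 1, 2 and 3. The group mean was thus 1.64 times higher in Nrf2 (−/−) mice. The share of sequences flagged as well above background ran from 65.5% to 71.3% on the Nrf2 (+/+) arrays and from 69.9% to 75.7% on the Nrf2 (−/−) arrays. Nfe2l2, the targeted gene, had normalized log2 signals of 12.40, 11.93 and 12.28 in Nrf2 (+/+) mice and of 7.95, 7.82 and 8.02 in Nrf2 (−/−) mice, a log2 difference of −4.27 (standard error 0.20, adjusted p = 0.000672 in limma) that matches the genotype labels. It was still well above background on all 6 arrays.

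Kif14 was at the background level in Nrf2 (+/+) mice and weakly lit in Nrf2 (−/−) mice. Its background-subtracted signal was −2.05, −3.02 and −4.44 scanner units in Nrf2 (+/+) replicates 1, 2 and 3. In Nrf2 (−/−) replicates 1, 2 and 3 it was 57.9, 38.4 and 42.8. The group means were −3.17 ± 1.20 (SD, n = 3) and 46.4 ± 10.2 (SD, n = 3), and the groups did not overlap. The flag for a signal well above background, which was used in the choice, was set on 0 of 3 Nrf2 (+/+) and on 3 of 3 Nrf2 (−/−) arrays. The software's own test of a positive signal gave the same split. That test reads the same spots, so it is not separate evidence. No Kif14 spot was an outlier or saturated. The signal error that the software estimated was between 15.7% and 18.5% of the signal on the Nrf2 (−/−) arrays.

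The background itself was read from 15 negative-control sequences, each spotted 20 times per array. On every array 13 of them were dim, with medians between −9.90 and 2.61, and 2 were lit, with medians from 51.2 to 138. Kif14 in Nrf2 (+/+) replicates 1, 2 and 3 exceeded the medians of 13, 7 and 4 of the 15 sequences. On each Nrf2 (−/−) array it exceeded all 13 dim ones and neither of the lit ones. Of the 260 spots of the dim sequences, 259, 257 and 259 lay below Kif14 on Nrf2 (−/−) arrays 1, 2 and 3, against 202, 130 and 113 on the Nrf2 (+/+) arrays. The Kif14 signal in Nrf2 (−/−) mice was thus above the dim negative controls and below those negative controls that were lit. A control was called lit where most of its spots were flagged well above background, and dim otherwise. The same flag was used in the choice of Kif14. Its place above the dim controls on the Nrf2 (−/−) arrays therefore follows largely from the choice and is only described.

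**Figure D1:**
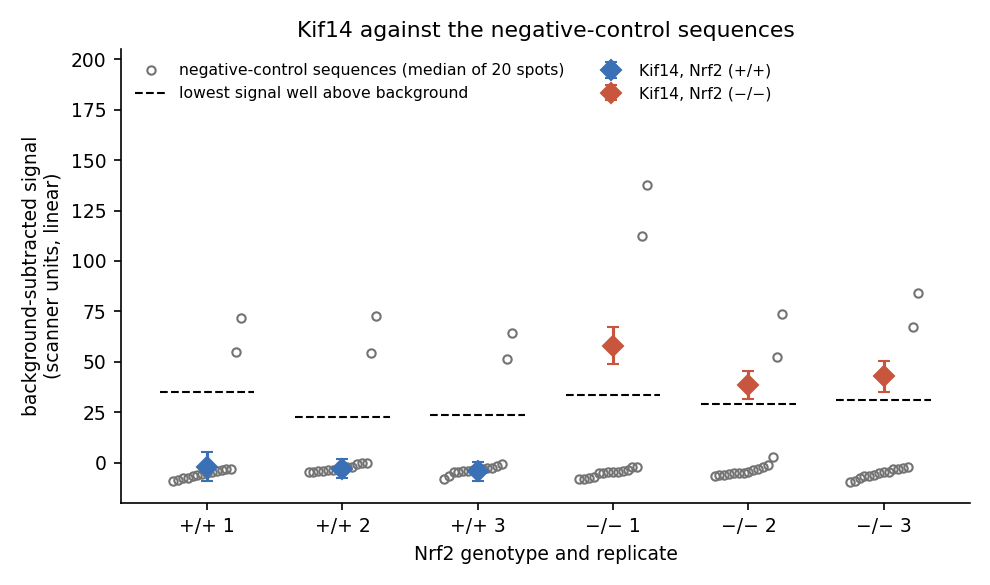
Background-subtracted signal of Kif14 (diamonds, with the signal error estimated by the software) on each of the 6 arrays, in scanner units on a linear axis, beside the medians of the 15 negative-control sequences (open circles, 20 spots each) and the lowest signal well above background (dashed). On the Nrf2 (+/+) arrays Kif14, from −4.44 to −2.05, lay among the dim controls in replicates 2 and 3 and just above them in replicate 1, below the dashed limit on all 3, and on the Nrf2 (−/−) arrays it lay above that limit, from 38.4 to 57.9.

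The size of the Kif14 difference cannot be read as a fold change. Where a signal is at or below background, the software writes a small positive surrogate, and the surrogates for Kif14 were 7.03, 4.56 and 4.78 in Nrf2 (+/+) replicates 1, 2 and 3. After quantile normalization these became log2 values of 2.54, 2.55 and 2.55, whose narrow spread is that of surrogates and not of measured signals. The Nrf2 (−/−) arrays gave log2 values of 5.29, 4.62 and 5.35, and the mean of 5.09 ± 0.41 (SD, n = 3) lay 2.54 above the surrogates (standard error 0.24). The size of this difference depends on the surrogate, and Kif14 is among the 43528 sequences tested only because its 3 Nrf2 (−/−) spots were well above background. The lowest normalized log2 signal that was well above background was 5.39, 4.76 and 5.21 on the Nrf2 (+/+) arrays, a mean of 5.12, which the Kif14 mean in Nrf2 (−/−) mice did not exceed. No lower bound of the fold is given on that scale. A shift of each array to its 75th percentile was set against this limit only after the data were seen. The Kif14 mean in Nrf2 (−/−) mice was then 5.21 and the mean limit 5.02, which are 1.14-fold apart. The limit of Nrf2 (+/+) replicate 1, at 5.26, lay above that Kif14 mean. Kif14 in Nrf2 (−/−) replicate 2, at 4.98, lay below the mean limit, so the 1.14-fold is not a firm lower bound. With normexp background correction, which models the background in place of surrogates, the log2 means were 5.93 ± 0.10 (SD, n = 3) and 6.66 ± 0.12 (SD, n = 3), a difference of 0.74. The size of this value depends in turn on the added offset of 50, so it is not a measured fold change either.

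The Kif14 spots can be set beside the lowest signals that passed the flag used in the choice. In scanner units, the lowest signal well above background was 33.6, 29.0 and 31.1 on Nrf2 (−/−) arrays 1, 2 and 3, and the processed Kif14 signals there were 57.7, 38.3 and 42.8. On the Nrf2 (+/+) arrays that lowest signal was 34.8, 22.7 and 23.3. A gain of this kind, from 0 of 3 arrays to 3 of 3, was found for 295 sequences, 0.484% of all 60915. The opposite pattern was found for 15, or 0.0246%. The brighter Nrf2 (−/−) arrays go in the same direction as this imbalance, and the part of brightness in it was not tested. The 295 sequences had mean log2 signals in Nrf2 (−/−) mice from 4.61 to 8.19 with a median of 5.06, and Kif14 stood near the middle, with 158 below it and 136 above. These are signals of different array sequences picked by the same flags as Kif14, so nothing about Kif14 is drawn from this position.

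Ensa was bright in both genotypes and higher in Nrf2 (−/−) mice. Its processed signal was 4482, 6618 and 4562 scanner units in Nrf2 (+/+) replicates 1, 2 and 3. In Nrf2 (−/−) replicates 1, 2 and 3 it was 21976, 17741 and 19323. The means of 5221 and 19680 stood in a ratio of 3.77 before normalization, on arrays whose median signals differed 1.64 times. The spot was well above background on all 6 arrays, none was saturated or an outlier, and the signal error estimated by the software was 10.0% on each array.

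On the normalized log2 scale Ensa was at 12.19, 13.05 and 12.50 in Nrf2 (+/+) mice and at 14.19, 13.78 and 14.14 in Nrf2 (−/−) mice. The groups did not overlap, and 0.73 separated the highest Nrf2 (+/+) array, replicate 2, from the lowest Nrf2 (−/−) array, also replicate 2. The group means of 12.58 ± 0.44 (SD, n = 3) and 14.04 ± 0.22 (SD, n = 3) differed by 1.45 (standard error 0.27), or 2.73-fold. Among the 43528 sequences tested, 86 had a larger positive difference. Kif14 is among the 86 with a difference measured from surrogates, so the rank of Ensa is not exact. The median difference over all 43528 sequences was −0.0078, a value that quantile normalization holds near 0. With the shift to the 75th percentile the means were 12.62 ± 0.39 (SD, n = 3) and 13.96 ± 0.13 (SD, n = 3), a difference of 1.34, and with normexp the difference was 1.43. From linear means of the median spot signal minus the local background, without normalization between arrays, it was 1.90.

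**Figure D2:**
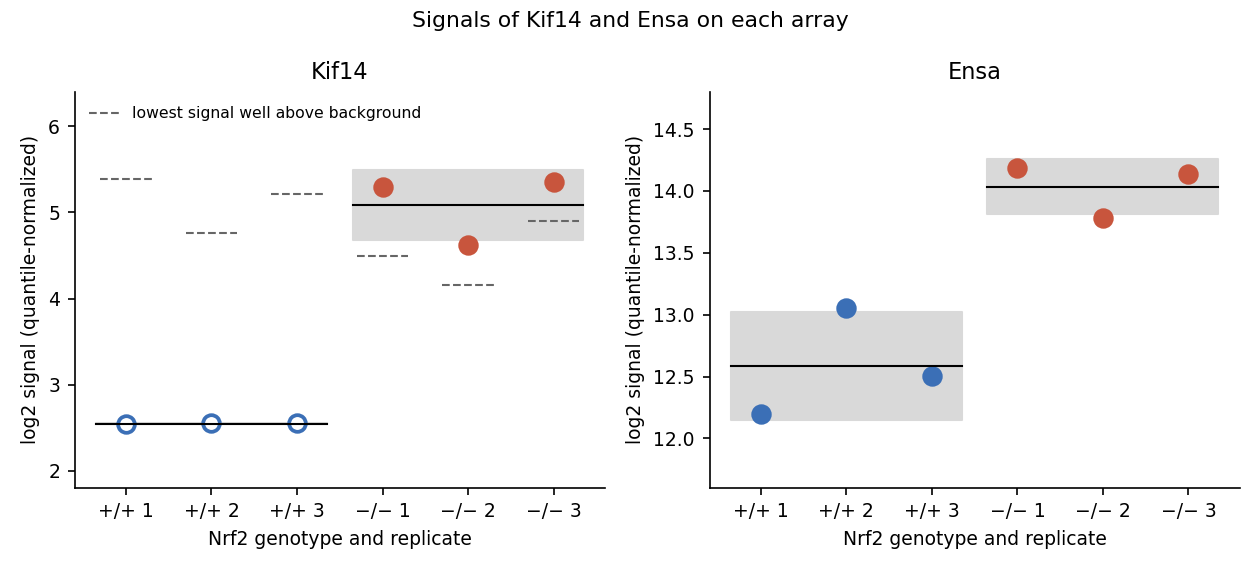
Quantile-normalized log2 signal of Kif14 (left) and Ensa (right) on each array; filled points were well above background and open points were not, lines are group means, grey bands are 1 SD (n = 3), and dashes on the left give the lowest signal well above background. The 3 open Kif14 points at 2.54 to 2.55 are surrogates below that limit, and the Ensa points run from 12.19 to 13.05 in Nrf2 (+/+) and from 13.78 to 14.19 in Nrf2 (−/−) mice; the vertical axes differ.

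Both genes share properties that the choice fixes, and these are read only against the whole array. All 3 Nrf2 (−/−) arrays lay above all 3 Nrf2 (+/+) arrays for 1851 sequences, or 4.25% of those tested, and below them for 2710, or 6.23%. The study's rule for mRNAs, a fold change above 1.5 and a p under 0.05 before adjustment, was met in limma by 544 sequences that were higher in Nrf2 (−/−) mice (1.25%) and by 1156 that were lower (2.66%). With the shift to the 75th percentile the split was 1003 higher and 976 lower. After Benjamini-Hochberg adjustment in limma, 21 sequences had a p under 0.05, or 0.0482%. These counts rest on single arrays and on the slide, which was inferred from the scan time. Without Nrf2 (−/−) replicate 2 there were 195 sequences past the adjusted threshold, and without Nrf2 (+/+) replicate 1 there were 8. Without Nrf2 (+/+) replicate 2 the count of higher sequences by the study's rule was 2371, and without Nrf2 (+/+) replicate 3 it was 353. With the slide as a block, a fit that leaves little to estimate the spread from, these counts were 568 and 2299. Nrf2 (−/−) replicate 2 was the lowest of its group for both genes on the normalized scale.

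The slides and scan sessions held both genotypes in part, and the differences could be read within them. Replicates 1 of both genotypes shared a scan time and so an inferred slide, where the log2 difference was 2.75 for Kif14 and 1.99 for Ensa. Replicates 3 shared another inferred slide, with 2.80 for Kif14 and 1.64 for Ensa. Each of the replicates 2 had a scan time of its own and was taken as alone on its slide. In the first scan session, with 1 Nrf2 (+/+) and 2 Nrf2 (−/−) arrays, the difference was 2.42 for Kif14 and 1.79 for Ensa. In the second session, with 2 and 1, it was 2.80 and 1.36. The signs of these values follow from the choice of the genes, whose groups do not overlap, and the Kif14 values again stand on surrogates.

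Other genes of the cell cycle could be followed in small part, because the files give no gene names and, apart from the reference genes, a name came only from the study's lists of changed transcripts. Of 72 genes in lists of the cytokinesis partners of Kif14, the Greatwall and PP2A pathway of Ensa, mitotic kinesins, proliferation genes and potassium channel subunits, 3 had a named sequence, and 0 of these had an adjusted p under 0.05 in limma. At an unadjusted p under 0.05, 1 was higher and 2 were lower, beside 1.76% and 3.29% of all tested sequences. All 3 belong to the 27 proliferation genes, and since the study listed them as changed on these same arrays, they are not independent evidence of a direction. The other lists, with 16 cytokinesis partners, 17 genes of the Ensa pathway, 8 kinesins and 4 channel subunits, had 0 named members and were not analysed here.

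Mki67, which encodes the proliferation antigen Ki-67, was at 7.15, 7.24 and 7.77 in Nrf2 (+/+) mice and at 6.34, 6.09 and 6.35 in Nrf2 (−/−) mice. This is a log2 difference of −1.13 (standard error 0.23, adjusted p = 0.253 in limma), opposite in sign to those of Kif14 and Ensa. Sgol2, a shugoshin that protects the cohesion of sister centromeres, was at 5.84 ± 0.15 (SD, n = 3) and 4.95 ± 0.40 (SD, n = 3), a difference of −0.89 (standard error 0.25, adjusted p = 0.557). Ccnd1, the cyclin of the G1 phase, was at 12.84 ± 0.23 (SD, n = 3) and 13.46 ± 0.22 (SD, n = 3), a difference of 0.62 (standard error 0.22, adjusted p = 0.858). None of these 3 genes passed the adjusted threshold. The genotypes did not overlap for any of them, as for 4.25% of all tested sequences upward and 6.23% downward, and they were named from a list of genes called changed on these arrays.

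Of 49 marker genes of hippocampal and other cell types, 2 were named, and neither marks the hippocampus, so that the tissue could not be checked in this way. Tmem212, a marker of the ciliated ependyma that lines the ventricles, was at 8.48 ± 0.74 (SD, n = 3) in Nrf2 (+/+) and 10.01 ± 0.55 (SD, n = 3) in Nrf2 (−/−) mice, a log2 difference of 1.53 (standard error 0.42, adjusted p = 0.566 in limma). Drd2, the dopamine D2 receptor, listed as a marker of the striatum, was at 8.34 ± 0.16 (SD, n = 3) and 9.11 ± 0.43 (SD, n = 3), a difference of 0.77 (standard error 0.26, adjusted p = 0.815). For both, all 3 Nrf2 (−/−) arrays lay above all 3 Nrf2 (+/+) arrays, as for 4.25% of all tested sequences, and their part in the signals of Kif14 and Ensa was not tested. They too were named because the study listed them as changed.

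**Figure D3:**
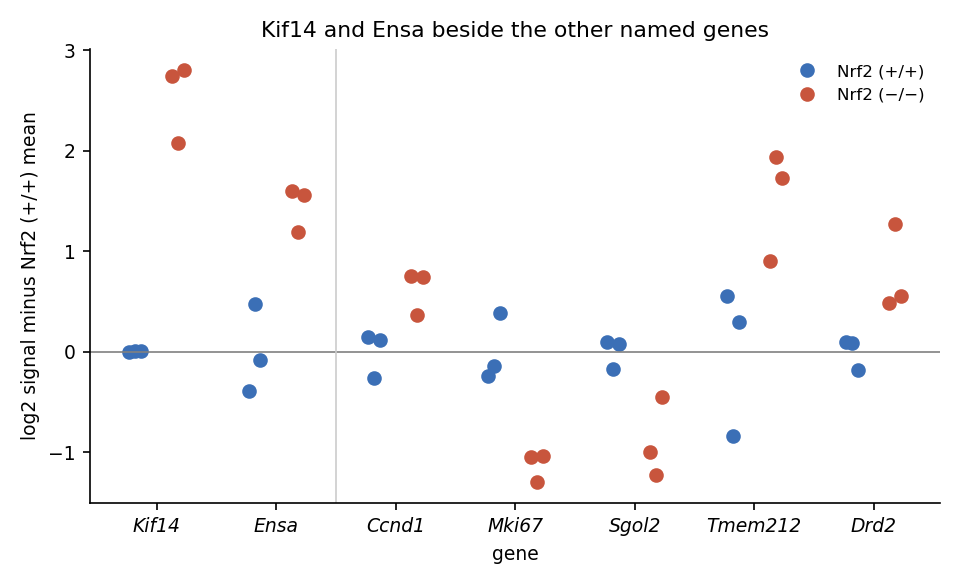
Log2 signal of each array minus the Nrf2 (+/+) mean of the gene, for Kif14, Ensa and the 5 other named genes of the lists; each point is 1 array. The 3 Nrf2 (−/−) points of Kif14, Ensa, Ccnd1, Tmem212 and Drd2 lie above the Nrf2 (+/+) points of the same gene, and those of Mki67 and Sgol2 lie below them.

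The 15 reference genes on the array, each spotted 20 times, showed how far transcripts used as constant standards moved on the same arrays. Their log2 differences ran from −0.23 for Tfrc, the transferrin receptor, to 0.77 for Actb, beta-actin, with a median of 0.037. With limma, 0 of the 15 had an adjusted p under 0.05 and 1, Actb, had an unadjusted p under 0.05 (adjusted p = 0.549), beside the 1.76% of all tested sequences that were higher at this threshold.

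The sequences whose pattern over the 6 arrays was closest to each gene were found by Pearson correlation of the log2 signals. The arrays fall into the 2 genotypes, so that a high correlation mostly states the same genotype difference, and no p is given. The 3 Nrf2 (+/+) values of Kif14 are surrogates, so that every correlation with Kif14 rests in part on values that were not measured. For Kif14 the closest was Rbm45, which encodes an RNA-binding protein, on chromosome 2 (r = 0.997 over 6 arrays). It was at 8.51, 8.70 and 8.88 in Nrf2 (+/+) mice and at 12.66, 11.73 and 12.44 in Nrf2 (−/−) mice, and was well above background on all 6 arrays. ASMM10P002574 and ASMM10P043994, which have no name here, followed with r of 0.997 and 0.996 and with log2 differences of 0.68 and 0.34. An lncRNA listed under the gene symbol Dusp12 on chromosome 1, ASMM10P010249, had r = 0.995 and a difference of 1.62. An lncRNA listed under 5031434O11Rik on chromosome 3, ASMM10P003964, had r = 0.990 and the same flags as Kif14, with 0 of 3 Nrf2 (+/+) and 3 of 3 Nrf2 (−/−) spots well above background. All 5 had their lowest Nrf2 (−/−) value in replicate 2, as the choice by likeness to Kif14 favours.

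For Ensa the 5 closest sequences were ASMM10P030940, ASMM10P054176, ASMM10P054693, ASMM10P021187 and ASMM10P018921, none with a name here. Their correlations with Ensa ran from 0.994 down to 0.991 over 6 arrays. Their log2 differences were 0.35, 0.60, 0.47, 0.73 and 0.15, each smaller than the 1.45 of Ensa. In all 5, Nrf2 (+/+) replicate 2 was the highest of its group, as the choice by likeness to Ensa favours. Kif14 and Ensa correlated with each other at r = 0.947, a value that again includes the surrogates of Kif14.

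**Figure D4:**
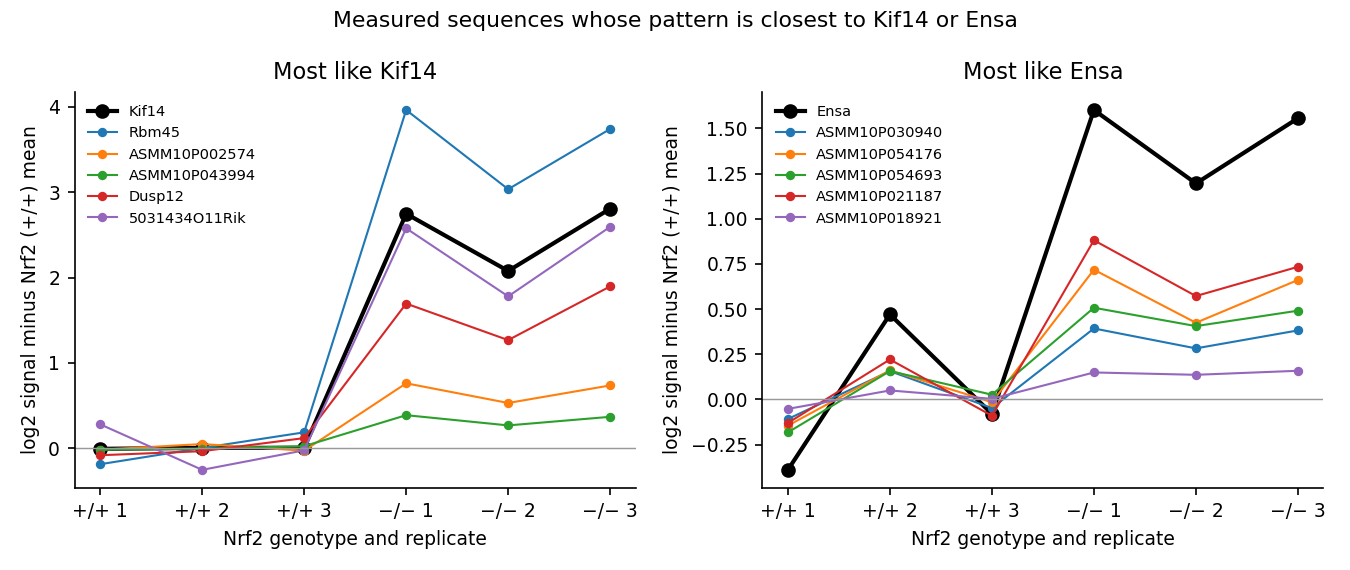
Log2 signal minus the Nrf2 (+/+) mean on each array for Kif14 (left) and Ensa (right), in black, and the 5 sequences most like each, with lines that only join the points of a sequence. In the left panel replicate 2 is the lowest Nrf2 (−/−) point of all 6 sequences, and in the right panel replicate 2 is their highest Nrf2 (+/+) point.

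The genes next to the pair on the chromosome could not be compared. The 3 protein-coding neighbours on each side are Gpr25, Camsap2, Ddx59, Zfp281, Nr5a2 and Ptprc for Kif14, and Ctss, Hormad1, Golph3l, Mcl1, Adamtsl4 and Ecm1 for Ensa. Of these 12 genes 0 had a named sequence, and they were not analysed here. The array sequences of Kif14 and Ensa were not used here either, so that hybridization of a related transcript, such as that of the ENSA relative ARPP19, was not tested.

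The differences of the pair were recomputed under the other ways of processing the arrays. For Ensa the lowest value, 1.26, came without Nrf2 (+/+) replicate 1 and the highest, 1.90, from linear means of the median spot signal. For Kif14 the lowest, 0.74, came with normexp. The highest, 2.78, came with the slide as a block and without both arrays alone on their slide, which give the same estimate by construction.

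**Figure D5:**
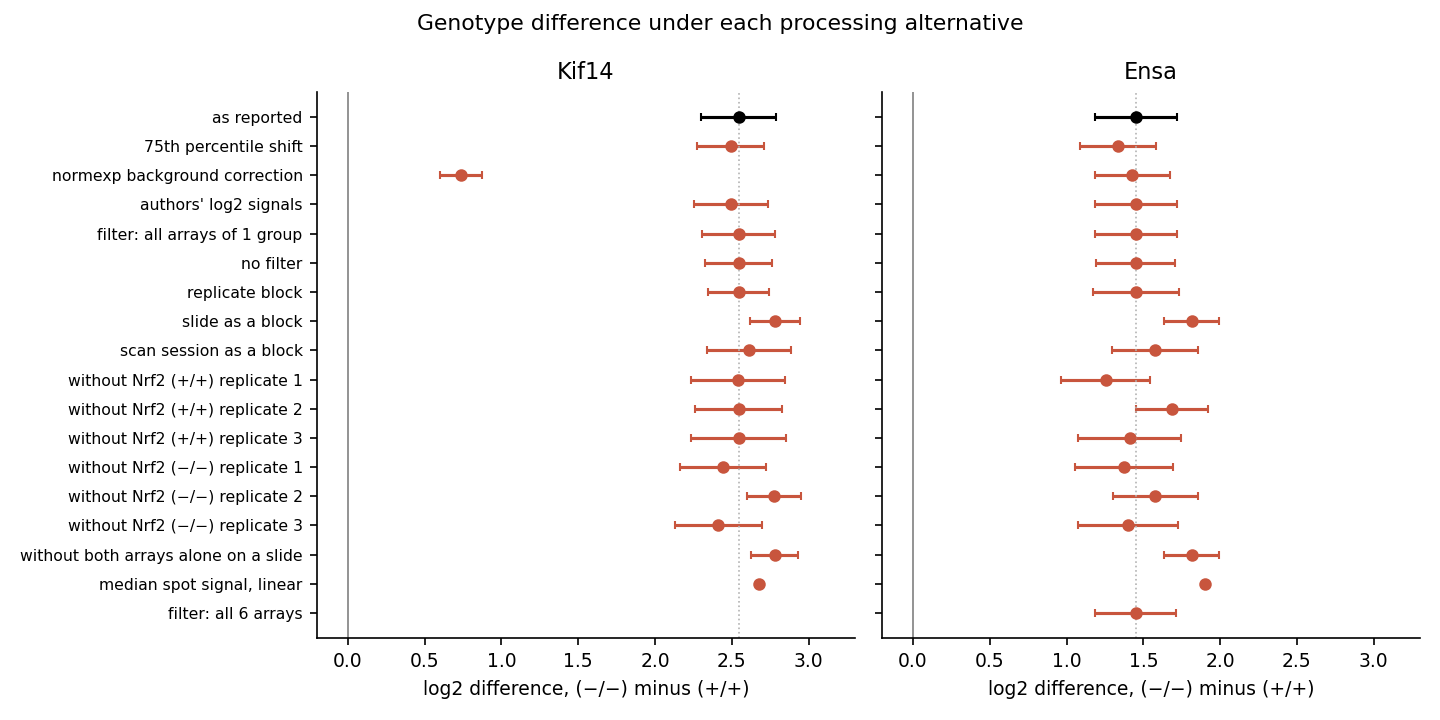
Log2 difference, Nrf2 (−/−) minus Nrf2 (+/+), of Kif14 and Ensa under each way of processing, with bars of 1 standard error where limma gave one; the dotted line is the value as reported. Every value is above 0, from 0.74 to 2.78 for Kif14 and from 1.26 to 1.90 for Ensa, and Kif14 has no value where a signal well above background was asked of all 6 arrays.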

How the data were processed

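Total RNA of the hippocampus was depleted of rRNA, amplified with random primers, labeled with Cy3 and hybridized to 1 array per mouse. The authors extracted spots with Agilent Feature Extraction (11.0.1.1), and the deposited intensity values are background-subtracted, with surrogates for low spots, and are not normalized between arrays. The authors also deposited log2 signals after quantile normalization in GeneSpring. Array design follows mm9. Here, control spots were left out, outlier spots (16 to 91 per array) were set to missing, spots were averaged per sequence, and log2 signals were quantile-normalized. The 43528 sequences flagged well above background on 3 or more of the 6 arrays were fitted with limma 3.58.1 in R 4.3.3 (lmFit, eBayes, Benjamini-Hochberg), without pairs, since replicate numbers do not name the same animal. The fit was also run on simulated data, but the outcome is not given here and nothing is drawn from it. With 3 arrays per group, their number limits the precision.

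Sequences were named by matching the fold change and p of the study's lists of changed transcripts (412 mRNA and 303 lncRNA entries) to the deposited log2 table within a relative tolerance of 0.001. Each entry matched 1 sequence. Those columns hold the authors' comparisons and served for names only. Reference genes were named by RefSeq transcript. Genes named in the text are the pair, Nfe2l2, every listed gene with a named sequence, the neighbours and the 5 most alike sequences of each, with Tfrc and Actb as the extremes of the reference genes, named after their values were seen. The members and lists were chosen with earlier results of these data known. Alternatives were a 75th percentile shift, normexp (offset 50), the authors' log2 signals, other filters, the methods' t-test, an intensity trend, replicate, slide or session blocks, and arrays left out. Slide and session were inferred from the scan times. Normexp used median spot signals in place of the planned means. Python 3.11.15, numpy 2.4.6, pandas 2.3.3 and matplotlib 3.10.9 were used otherwise. The circRNA arrays and qRT-PCR were not analysed here.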

Additional observations from a re-analysis of the deposited data

How the results depend on the processing

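The Kif14 difference is measured from surrogates in Nrf2 (+/+) mice, so that its size under most settings says nothing of stability. It was 0.74 with normexp, which models the background instead, a value that depends in turn on the added offset of 50. It has no value where all 6 arrays had to be well above background. The Ensa difference, which filters and the replicate block cannot move, was 1.90 from linear means of the median spot signal. It was 1.81 with the slide as a block and 1.81 without both arrays alone on their slide (added after the data were seen). The slide block takes up the arrays alone on their slide, so these settings give the same estimate by construction and count as 1 alternative. The slide block also leaves little to estimate the spread from. With 1 array left out at a time the difference ran from 1.26 to 1.69 for Ensa and from 2.41 to 2.78 for Kif14. The signs of both differences follow from the choice of the genes. Why these values moved was not tested.

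The count of sequences with an adjusted p under 0.05, 21 as reported, was 9 with all 6 arrays well above background, 9 without a filter, 0 by the methods' t-test (2535 at an unadjusted p under 0.05), 568 with the slide as a block, 139 without both arrays alone on their slide, and 8 to 195 with 1 array left out, highest without Nrf2 (−/−) replicate 2. The count of higher sequences by unadjusted p and fold change, 544 as reported with 1156 lower, was 1003 with 976 lower under the 75th percentile shift. It was 226 with normexp, 362 with all 6 arrays well above background, 286 by the methods' t-test, 2299 with the slide as a block, 2057 without both arrays alone on their slide, and 353 to 2371 with 1 array left out, highest without Nrf2 (+/+) replicate 2. The 3 named cell cycle genes, of 72 listed, had 0 adjusted calls under the 18 alternatives, among them the methods' t-test and the replicate block, which called 0 of all sequences.

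With the replicate number as a block, the differences were 2.54 for Kif14 and 1.45 for Ensa, 0 sequences had an adjusted p under 0.05 in limma (7090 at an unadjusted p under 0.05), and 1235 were higher by unadjusted p and fold change. The deviations of same-numbered arrays from their group means correlated at −0.15, 0.43 and 0.81. Deviations within a group of 3 are tied to each other, and replicates 1 and replicates 3 each share an inferred slide. These values therefore cannot decide whether the numbers pair the mice.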
